A study of Homo sapiens with 4 samples.

Results

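The Wnt ligands, their receptors and their secreted antagonists were examined in RNA sequencing of U251 and U87, 2 human glioblastoma (GBM) cell lines. They were chosen by gene symbol among the protein-coding genes: the WNT, FZD, DKK and SFRP families, LRP5, LRP6, AXIN1, AXIN2, PORCN, ROR1, ROR2, RNF43 and ZNRF3. This gave 46 of the 58735 genes in the files, of which 19951 are protein-coding. Each line was sequenced once as the Control group and once after 48 h of Bru (brusatol), a compound isolated from the seeds of Brucea plants, given at its IC50. There were thus 4 libraries and 1 library per condition, so no value here has a replicate check, and a difference between libraries cannot be told apart from the variation between cultures. The vehicle of the sequenced Control cells is not given in the sources used here.

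Wnt proteins are secreted ligands that carry a lipid added by PORCN and bind Frizzled (FZD) receptors. In the canonical branch the coreceptors LRP5 and LRP6 join the complex, the destruction complex that contains AXIN1 is held off, and β-catenin enters the nucleus to act with TCF/LEF factors. In the noncanonical branches, used by ligands such as WNT5A and WNT5B, Frizzled works with ROR1, ROR2 or planar polarity proteins on cell shape and movement. SFRP proteins bind Wnt ligands outside the cell, DKK1 blocks LRP5 and LRP6, and RNF43 and ZNRF3 remove Frizzled from the surface.

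The values are FPKM, fragments scaled to gene length and to library size, from which the whole number of reads per gene was recovered. Reads on genes summed to between 17083896 and 21453561 per library, and a count of 3 reads, taken as the floor of detection, equals an FPKM of 0.143 to 0.172 for a gene of 1 kilobase. Ratios between libraries are given as log2 on FPKM + 0.1, which understates differences of low genes, and a fold is the ratio of the FPKM without that addition. Each carries the 95% exact (Clopper-Pearson) interval of the ratio of its reads, also without it, which covers counting error only and compares these libraries, not the conditions; at very low counts the value can lie outside it. Ratios were counted as past 2-fold over the 12949 genes whose FPKM averaged 1 or more across the libraries, 19 of them Wnt genes. The glial and mesenchymal markers were uneven: VIM had an FPKM of 606 to 701 and CD44 of 94.5 to 125 in the 4 libraries, whereas SOX2 stood at 129 and 91.2 in U251 and at 0 and 0.0457 in U87, and GFAP stood at 2.42 and 1.08 in U251 and at 0.215 and 0.147 in U87. OLIG2 was higher in U87, at 0.627 and 1.05 FPKM against 0.0284 and 0.0644 in U251, and S100B had 9 reads in U251 Control and 0 elsewhere. NES was past 2-fold lower with Bru in both lines, at 125 and 50.6 FPKM in U251 (log2 ratio -1.30) and 1.46 and 0.569 in U87 (log2 ratio -1.23), and the part of this in the results on Bru was not tested. The 7 markers of leukocytes, endothelium, epithelium and neurons summed to an FPKM of 0.107 and 0.183 in U251 and 0.937 and 0.597 in U87, with CD3D at 0 in every library. The largest parts of the U87 sums were PECAM1, at 0.499 and 0.178 FPKM from 70 and 24 reads, and EPCAM, at 0.330 and 0.319 FPKM from 15 and 14 reads.

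The first question was which members the lines carried at all. Of the 46 genes, U251 held 31 with at least 3 reads in Control and 31 in Bru, and U87 held 29 and 28. Over all protein-coding genes the share with at least 3 reads was 69.6%, 69.9%, 69.3% and 70.4% in the same order, so the number of detected members was close to that background. Each library held 8 of the 10 Frizzled receptors, 9 to 11 of the 19 ligands and 4 or 5 of the 8 secreted antagonists. DKK4, FZD9, FZD10, SFRP5, WNT1, WNT2, WNT7A and WNT8A had 0 reads in all 4 libraries. A count of 0 allows up to 3 reads. A further 11 genes stayed below 20 reads in every library, namely ROR2, SFRP2, WNT10A, WNT16, WNT8B, WNT9B, DKK2, WNT11, WNT4, WNT6 and WNT3A.

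**Figure D1:**
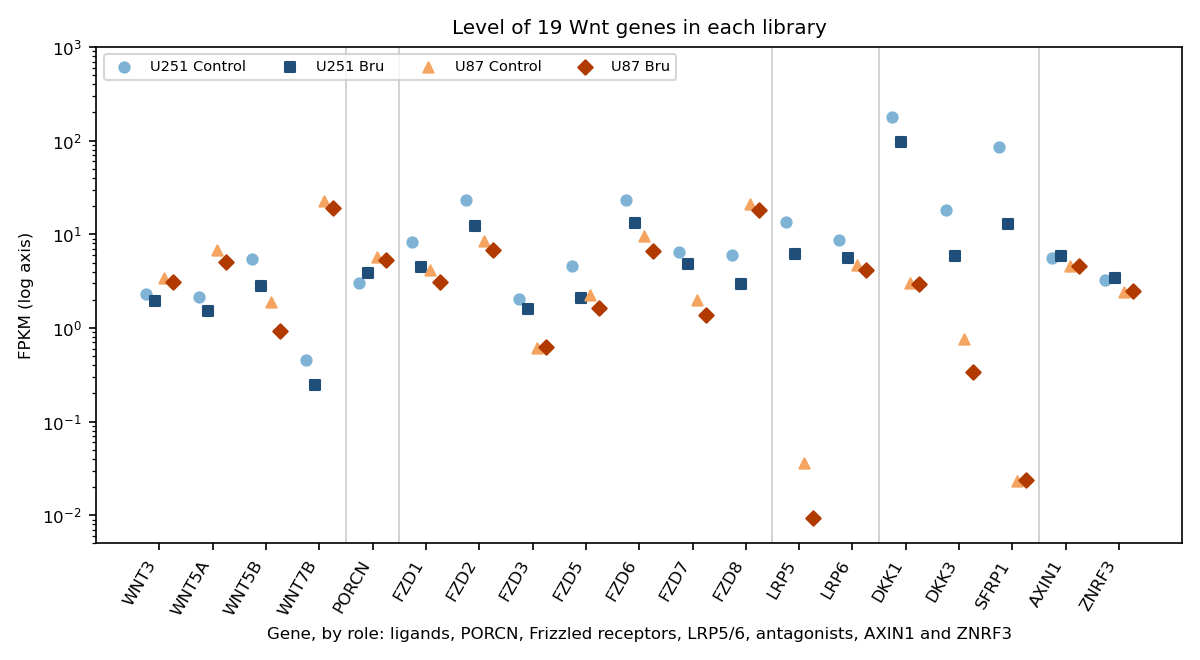
The plot shows the FPKM of 19 Wnt genes whose mean FPKM reached 1, on a log axis and grouped by role, with 1 point per library and no error bars because each condition has 1 library. DKK1 and SFRP1 stand highest in U251 Control at 179 and 85.5 FPKM, while in U87 WNT7B and FZD8 lead at 22.8 and 21.3 FPKM and LRP5 and SFRP1 lie under 0.1 FPKM.

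The roles, which were given by gene family, had different weights in U251 and U87. All DKK and SFRP genes were counted as secreted antagonists, with DKK3, a divergent DKK, among them. U251 Control held most of its signal in the secreted antagonists, whose FPKM summed to 285, against 4.23 in U87 Control. The ligands went the other way, with a sum of 12.0 in U251 Control and 36.1 in U87 Control. The Frizzled receptors summed to 74.8 and 49.0 FPKM, and the coreceptors to 22.1 and 4.73 FPKM, in the same order. The leading gene differed for ligands, Frizzled receptors and coreceptors and was the same for antagonists (DKK1), scaffold and feedback genes (AXIN1) and ROR receptors (ROR1). WNT5B made up 45.2% of the ligand FPKM in U251 Control and WNT7B 63.3% in U87 Control, while FZD2, level with FZD6 at 23.4 FPKM, made up 31.3% of the Frizzled FPKM in U251 Control and FZD8 43.5% in U87 Control.

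Between the Control libraries, 3 of the 19 members were past 2-fold higher in U87 than in U251 and 9 were past 2-fold lower. Over all 12949 genes the shares were 14.5% higher and 16.0% lower, with a median log2 ratio of -0.01 against -0.99 for the members. Since a gene passes the filter on its mean over the 4 libraries, a member high in 1 line only, such as WNT7B, SFRP1 or LRP5, could enter only as a gene that differs, and the count is a description. Between the Bru libraries, 3 members were higher in U87 and 7 lower, beside 14.3% and 15.0% of all genes, and the median of the members was -0.54. The 3 higher members were WNT7B, WNT5A and FZD8 in both cases, and the 7 lower ones in the Bru libraries, SFRP1, LRP5, DKK1, DKK3, FZD3, FZD7 and WNT5B, were also among the 9 of the Control libraries, with FZD2 and FZD6 as the others.

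**Figure D2:**
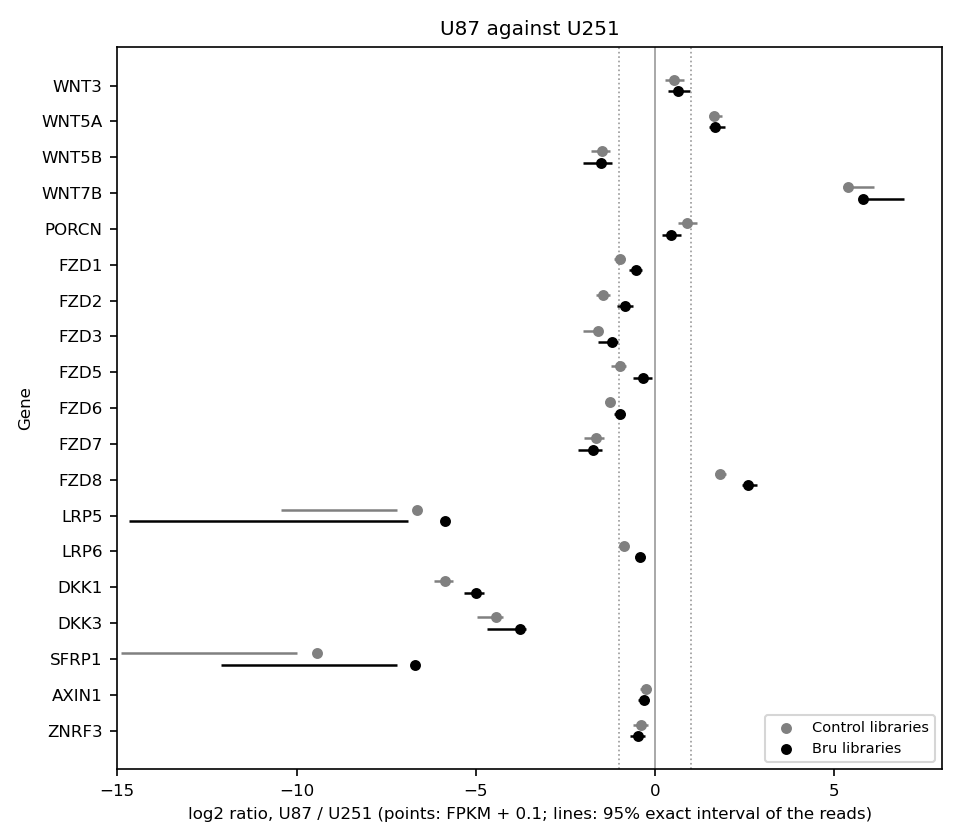
The plot shows the log2 ratio of U87 to U251 for 19 Wnt genes, in grey for the Control libraries and in black for the Bru libraries, with points on FPKM + 0.1, lines for the 95% exact interval of the reads and dotted lines at 2-fold. WNT7B lies at 5.37 and 5.79 to the right, and SFRP1, LRP5, DKK1 and DKK3 lie at -3.77 or lower to the left; for SFRP1 and LRP5, with 4 reads or fewer in U87, the added 0.1 places the point outside its interval.

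Among the ligands, WNT7B showed the widest gap. WNT7B (ENSG00000188064, GRCh38 chr22:45920362-45977129, minus strand) encodes a ligand of the canonical branch that acts in vessel formation of the developing brain. Its FPKM was 0.453 (Control) and 0.246 (Bru) in U251 and 22.8 and 19.0 in U87, from 48, 23, 2084 and 1670 reads. Both U87 libraries thus stood above both U251 libraries, by 50.4-fold between the Control libraries (log2 ratio 5.37, interval 5.24 to 6.10) and by 77.3-fold between the Bru libraries. Among protein-coding genes it ranked at percentile 23.5 in U251 Control and 86.0 in U87 Control, where genes without a read were left out of the ranking. On each side, the nearest protein-coding gene with a mean FPKM of at least 1 was ATXN10, 75.1 kilobases away, and PPARA, 173 kilobases away. They had log2 ratios of -1.25 and 0.23 between the same Control libraries.

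WNT5A and WNT5B are close relatives that signal mainly through the noncanonical branches, and they were split between the lines. WNT5A had 2.14 and 1.52 FPKM in U251 Control and Bru and 6.85 and 5.05 FPKM in U87 Control and Bru, a log2 ratio of 1.63 (interval 1.49 to 1.86) between the Control libraries. WNT5B had 5.43 and 2.83 FPKM in U251 and 1.89 and 0.934 FPKM in U87, a log2 ratio of -1.47 between the Control libraries and -1.50 between the Bru libraries. Higher WNT5A in U87 and higher WNT5B in U251 were therefore seen in both conditions. WNT3, a canonical ligand, was at 2.33, 1.94, 3.40 and 3.08 FPKM in U251 Control, U251 Bru, U87 Control and U87 Bru, and stayed under 2-fold between the lines. PORCN, the enzyme that adds the lipid the ligands need, had 3.04 and 3.91 FPKM in U251 and 5.72 and 5.38 FPKM in U87.

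Of the coreceptors, LRP5 was carried by U251 and all but missing from U87, while LRP6 was present in both. LRP5 (ENSG00000162337, chr11:68312609-68449275, plus strand) had 1735 and 707 reads in U251 Control and Bru, or 13.4 and 6.19 FPKM, and 4 and 1 reads in U87 Control and Bru, or 0.0359 and 0.00932 FPKM. The ratio of the Control libraries was 374-fold, with an interval of the log2 ratio from -10.42 to -7.19. LRP6 had 8.72 and 5.63 FPKM in U251 and 4.69 and 4.20 FPKM in U87, and made up 99.2% of the coreceptor FPKM in U87 Control. On each side of LRP5, the nearest protein-coding gene with a mean FPKM of at least 1 was looked up after the values of LRP5 were seen. C11orf24 was at 12.1 FPKM in U251 Control and 21.0 FPKM in U87 Control, and PPP6R3 at 15.3 and 13.7 FPKM. The rule picks expressed genes, so their reads are no finding, and the state of the locus was not tested. The window around the RefSeq start of LRP5, from 250 bases before to 50 after it (GRCh38.p14 chr11:68312341-68312640, plus strand), is shown because this gene separates the lines most among the receptors, and CpG dinucleotides, the sites of DNA methylation, are in capitals. Methylation was not measured here.
LRP5: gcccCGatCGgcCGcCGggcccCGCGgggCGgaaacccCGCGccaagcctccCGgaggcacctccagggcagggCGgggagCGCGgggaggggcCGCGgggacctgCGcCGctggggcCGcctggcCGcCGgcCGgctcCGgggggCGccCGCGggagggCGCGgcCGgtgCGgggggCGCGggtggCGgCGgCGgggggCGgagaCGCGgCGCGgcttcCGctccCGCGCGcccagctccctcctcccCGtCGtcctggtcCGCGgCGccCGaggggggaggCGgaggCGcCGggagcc
The window holds 52 CpG dinucleotides and has a GC content of 86.7%, against a median of 70.8% over the 36 windows of 31 members in the RefSeq table and 58.7% over all its 35116 windows.

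The 7 Frizzled receptors above the filter were not uniform between the lines, and 6 of them were lower in U87 Control than in U251 Control. FZD2 and FZD6 were the highest in U251 Control at 23.4 FPKM each, with 8.54 and 9.69 FPKM in U87 Control and log2 ratios of -1.45 and -1.26. FZD7 had 6.42 and 4.82 FPKM in U251 Control and Bru and 1.99 and 1.38 FPKM in U87 Control and Bru, with log2 ratios of -1.64 and -1.73. FZD3, which works in axon guidance and planar polarity, had 2.05 and 1.58 FPKM in U251 and 0.610 and 0.633 FPKM in U87. FZD1 and FZD5 lay just within 2-fold, at -0.98 and -0.99, between the Control libraries. All Frizzled ratios below 0 in the Control libraries were also below 0 in the Bru libraries.

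FZD8 was the exception, higher in U87. FZD8 (ENSG00000177283, chr10:35638249-35642278, minus strand), a receptor of canonical ligands, had 6.01 FPKM (Control) and 2.96 FPKM (Bru) in U251 and 21.3 and 18.3 FPKM in U87. The log2 ratio was 1.81 (interval 1.68 to 1.97) between the Control libraries and 2.59 (interval 2.42 to 2.84) between the Bru libraries. Its start window (GRCh38.p14 chr10:35642247-35642546, minus strand) is shown as that of the leading Frizzled of U87, with CpG dinucleotides in capitals.
FZD8: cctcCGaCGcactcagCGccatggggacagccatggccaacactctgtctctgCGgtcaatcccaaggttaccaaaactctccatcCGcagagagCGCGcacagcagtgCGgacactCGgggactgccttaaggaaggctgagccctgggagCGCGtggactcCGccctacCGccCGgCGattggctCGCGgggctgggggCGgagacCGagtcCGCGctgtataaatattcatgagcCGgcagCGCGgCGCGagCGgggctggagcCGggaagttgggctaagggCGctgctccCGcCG
It holds 31 CpG dinucleotides, its GC content is 67.0%, and the letters TATAAA begin at position -29 from the start.

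Of the secreted antagonists, DKK1, SFRP1, DKK3 and SFRP4 were higher in U251 than in U87, and SFRP2 went the other way at low counts, with 0 reads in both U251 libraries and 9 and 6 reads in U87. DKK1 (ENSG00000107984, chr10:52314296-52318042, plus strand), the ligand of LRP5 and LRP6 that blocks canonical signalling and is itself a target gene of that branch, had 179, 97.2, 3.01 and 2.94 FPKM in U251 Control, U251 Bru, U87 Control and U87 Bru. It ranked 155th by FPKM among the protein-coding genes in U251 Control and 8340th in U87 Control. The ratio was 59.4-fold between the Control libraries (log2 ratio -5.85, interval -6.17 to -5.63) and 33.0-fold between the Bru libraries, higher in U251 both times. Of its exon bases, 9.61% lie opposite PRKG1-AS1, which had 13 to 19 reads. The start window of DKK1 (GRCh38.p14 chr10:52314031-52314330, plus strand) is shown as that of the highest member of all, with CpG dinucleotides in capitals.
DKK1: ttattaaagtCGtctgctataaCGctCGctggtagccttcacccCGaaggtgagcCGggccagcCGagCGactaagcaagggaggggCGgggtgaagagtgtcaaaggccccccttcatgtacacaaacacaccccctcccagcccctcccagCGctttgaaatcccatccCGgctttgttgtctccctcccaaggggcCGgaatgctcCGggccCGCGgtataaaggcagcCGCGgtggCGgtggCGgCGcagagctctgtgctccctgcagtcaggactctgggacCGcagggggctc
It holds 20 CpG dinucleotides, fewer than the 52 of LRP5, its GC content is 63.7%, and TATAAA begins at position -30.

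SFRP1 (ENSG00000104332, chromosome 8, minus strand), a decoy that binds Wnt ligands, had 8539 Control reads and 1129 Bru reads in U251, or 85.5 and 12.8 FPKM. Each U87 library held 2 reads, or 0.0232 and 0.0241 FPKM, which is below the floor. The log2 ratio of the reads was -11.84 (interval -14.89 to -9.99) between the Control libraries and -9.05 (interval -12.10 to -7.19) between the Bru libraries. SFRP1 was thus among the strongly expressed genes of U251 Control, at rank 403, and not detectable above the floor in U87. DKK3 (ENSG00000050165, chr11:11963106-12009769, minus strand), a divergent member of the DKK family, had 18.3 and 5.92 FPKM in U251 Control and Bru and 0.755 and 0.341 FPKM in U87 Control and Bru, so that U251 was 24.2-fold and 17.4-fold higher. SFRP4, under the filter, had 147, 53, 13 and 17 reads in U251 Control, U251 Bru, U87 Control and U87 Bru.

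The scaffold AXIN1 and the ubiquitin ligase ZNRF3, both of which hold the pathway back, were nearly level across the libraries. AXIN1 had 5.53, 5.82, 4.63 and 4.63 FPKM, and ZNRF3 had 3.23, 3.45, 2.42 and 2.46 FPKM, in U251 Control, U251 Bru, U87 Control and U87 Bru. AXIN2, a canonical target gene that feeds back on the pathway, was low, with 47, 18, 50 and 31 reads in that order. Of its exon bases, 25.2% overlap AC004805.1 on the same strand, so its counts are uncertain to that extent. ROR1, the receptor of WNT5A, had 47 and 50 reads in U251 and 187 and 183 reads in U87, and its mean FPKM of 0.961 lay just under the filter. RNF43 had 2 and 1 reads in U251 and 52 and 67 reads in U87, but 73.9% of its exon bases overlap other genes, SUPT4H1 among them, and its counts are uncertain. The remaining low members were FZD4 with 88, 82, 57 and 49 reads, WNT10B with 29, 14, 33 and 13, WNT2B with 64, 31, 24 and 35, and WNT9A with 23, 18, 0 and 2. FZD4 shares 18.9% of its exon bases with PRSS23 and WNT2B 21.2% with ST7L on the opposite strand, and whether the counting used strand is not given in the sources used here.

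The second question was how the members differed between Bru and Control within each line. In U251, 0 of the 19 members were past 2-fold higher in the Bru library and 4 were past 2-fold lower, namely SFRP1, DKK3, LRP5 and FZD5. Over all 12949 genes 3.36% were higher and 5.44% lower. Of the members, 16 had a log2 ratio below 0, with a median of -0.82, where 52.1% of all genes were below 0 with a median of -0.03. In U87, 0 members were past 2-fold in either direction, beside 1.92% of all genes higher and 1.41% lower. Of the protein-coding genes, 0.295% were higher and 0.590% lower, so a count of 0 among 19 is close to that background. The count of 0 members rests on the added 0.1: as ratios of FPKM, DKK3 was 2.22-fold and WNT5B 2.02-fold lower, and with 0.01 added the count was 3, with LRP5 as the other member. There too 16 of 19 were below 0, with a median of -0.26, where 56.7% of all genes and 60.1% of the protein-coding ones were below 0, with medians of -0.04 and -0.05. The 19 include LRP5, with 4 and 1 reads in U87, and SFRP1, with 2 reads in each U87 library, which passed the filter through U251 only. LRP5 is among the 16, as is AXIN1 at -0.0023, so the U87 count and median partly rest on genes that allow no comparison there. In each line the median of the members thus lay below that of all genes, which is a description of these libraries, since 1 library per condition allows no p-value. A lower FPKM is relative to the other RNA of a library, and less RNA per cell cannot be told apart from fewer cells that make it.

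**Figure D3:**
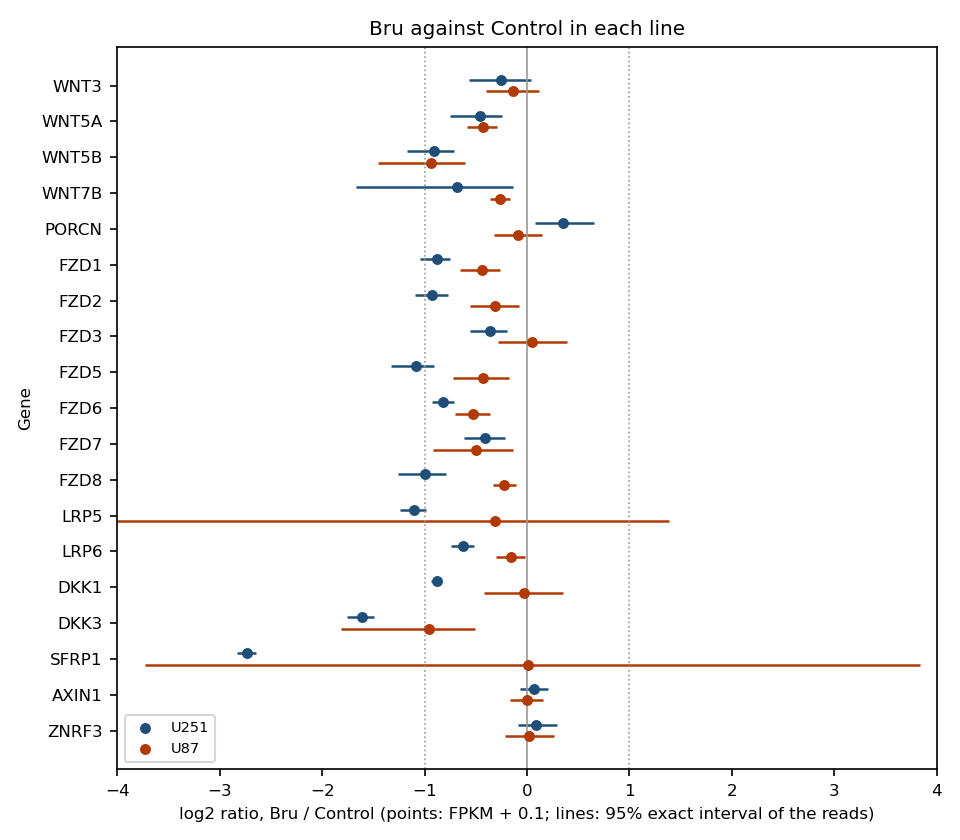
The plot shows the log2 ratio of Bru to Control for 19 Wnt genes in U251 (blue) and U87 (red), with points on FPKM + 0.1, lines for the 95% exact interval of the reads and dotted lines at 2-fold. In U251 16 points lie left of 0, from SFRP1 at -2.73 on, and in U87 all lie between -0.96 and 0.05; the U87 interval of LRP5 runs past the left edge to -7.57.

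**Figure D4:**
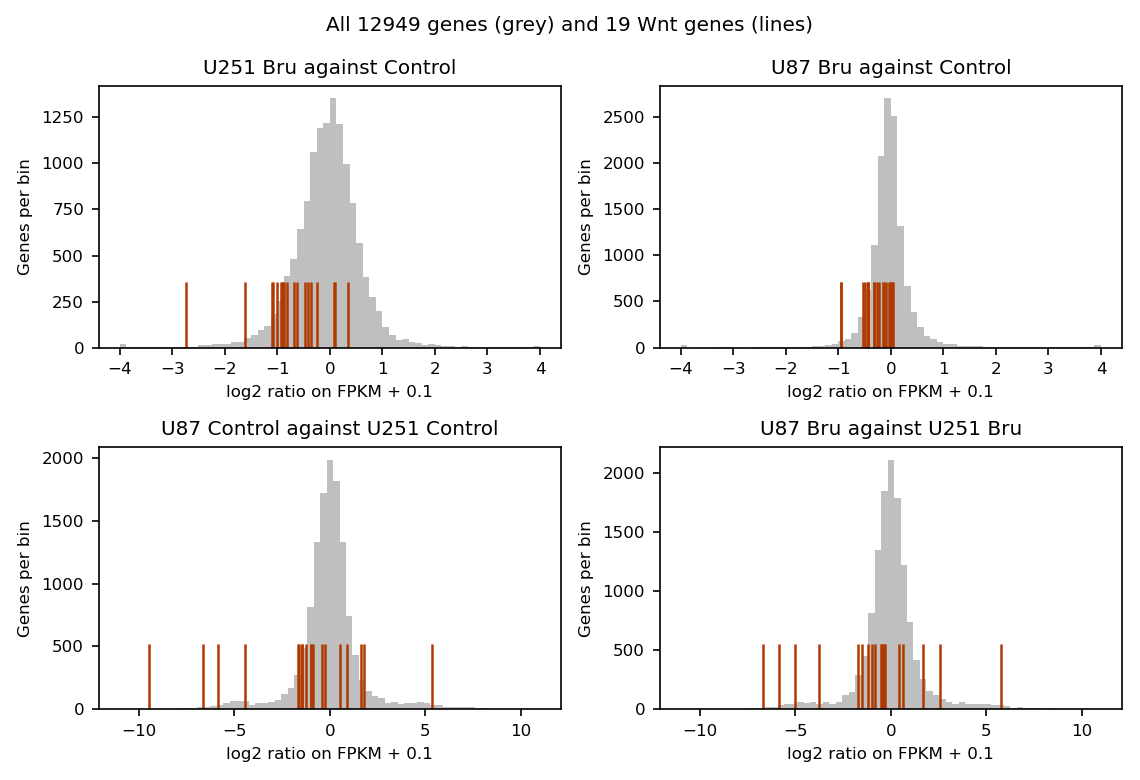
The histograms show the log2 ratio of all 12949 genes (grey, genes per bin) in the 4 comparisons, with 19 Wnt genes as vertical lines of equal height; ratios beyond the axis of the upper panels are placed in the outermost bins. In the upper left panel, Bru against Control in U251, the Wnt genes sit mostly left of the peak, with a median of -0.82 against -0.03.

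Genes grouped as antagonists by their family had the 2 lowest ratios among the members above the filter in U251. SFRP1 went from 85.5 FPKM in Control to 12.8 FPKM in Bru, 6.68-fold lower (log2 ratio -2.73, interval -2.83 to -2.65). DKK3 went from 18.3 to 5.92 FPKM (log2 ratio -1.61, interval -1.76 to -1.49), and SFRP4, under the filter, from 147 to 53 reads (log2 ratio -1.19, interval -1.77 to -0.83). DKK1, the most abundant, went from 179 to 97.2 FPKM and stayed within 2-fold, at a log2 ratio of -0.88 (interval -0.94 to -0.83). The sum of the antagonists was 285 FPKM in U251 Control and 117 FPKM in U251 Bru, and the share of DKK1 in it was 62.9% and 83.3%. In U87 the antagonists were low in both libraries. DKK1 was at 3.01 and 2.94 FPKM there (log2 ratio -0.03, interval -0.42 to 0.35), and DKK3 at 0.755 and 0.341 FPKM, from 69 and 30 reads (log2 ratio -0.96, interval -1.82 to -0.51). SFRP1, with 2 reads in each U87 library, allows no comparison.

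All 7 Frizzled receptors above the filter had lower FPKM in the Bru library of U251, with a median log2 ratio of -0.88. FZD5 (ENSG00000163251, chr2:207762586-207769563, minus strand), a receptor of canonical ligands, went from 4.56 to 2.10 FPKM (log2 ratio -1.08, interval -1.33 to -0.91) and was the one Frizzled past 2-fold. Without the added 0.1 FZD5 was 2.17-fold lower, and only the larger addition of 1 brought it under 2-fold, at a log2 ratio of -0.84. FZD8 stood just short of the limit, from 6.01 to 2.96 FPKM, which is 2.03-fold lower without the added 0.1 and under 2-fold with it (interval of the log2 ratio -1.26 to -0.79). The ratios were -0.93 for FZD2, -0.88 for FZD1, -0.82 for FZD6, -0.41 for FZD7 and -0.36 for FZD3, each with an interval below 0. The sum over the family was 74.8 FPKM in U251 Control and 42.1 FPKM in U251 Bru. In U87, 6 of the 7 were below 0, with a median of -0.43, and the sum was 49.0 FPKM in Control and 38.9 FPKM in Bru. The lowest Frizzled ratio in U87 was that of FZD6, from 9.69 to 6.70 FPKM (log2 ratio -0.53, interval -0.70 to -0.36), and FZD3 was the one above 0, at 0.05 (interval -0.28 to 0.39).

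The start window of FZD5 (GRCh38.p14 chr2:207769857-207770156, minus strand) is shown as that of the Frizzled past 2-fold in U251, with CpG dinucleotides in capitals.
FZD5: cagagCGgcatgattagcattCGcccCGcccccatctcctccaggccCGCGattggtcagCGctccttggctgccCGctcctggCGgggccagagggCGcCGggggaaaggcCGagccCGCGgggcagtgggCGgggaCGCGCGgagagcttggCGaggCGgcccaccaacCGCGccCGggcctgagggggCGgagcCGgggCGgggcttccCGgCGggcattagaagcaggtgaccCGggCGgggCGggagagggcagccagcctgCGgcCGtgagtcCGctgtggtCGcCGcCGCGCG
The window holds 38 CpG dinucleotides and has a GC content of 77.0%. The start used by RefSeq lies 343 bases upstream of the gene end given in the files. The letters CTTTGAT, a form of the core of the TCF/LEF consensus, were searched on both strands. They were found in 0 of the 36 windows of the members, where 2.62% of all windows in the table hold them. Other forms, such as CTTTGAA and CTTTGTT, were not searched, and the DKK1 window shown above holds both. The count of 0 is thus for the letters CTTTGAT only and does not cover the consensus as a whole. TATAAA, a motif searched on both strands after the windows had been read, was in 8.33% of the members' windows and 11.5% of all windows. These matches and their lack describe letters within 300 bases and say nothing of the factors.

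Both coreceptors were lower in the Bru library of U251. LRP5 went from 13.4 to 6.19 FPKM (log2 ratio -1.10, interval -1.24 to -0.99) and LRP6 from 8.72 to 5.63 FPKM (log2 ratio -0.62, interval -0.74 to -0.52). In U87, LRP6 went from 4.69 to 4.20 FPKM (log2 ratio -0.16, interval -0.30 to -0.02), and the 4 and 1 reads of LRP5 gave an interval of -7.57 to 1.39, too wide to compare. No ligand above the filter was past 2-fold in either line on FPKM + 0.1. WNT5B was the lowest of the 4 above the filter in both lines, from 5.43 to 2.83 FPKM in U251 (log2 ratio -0.91, interval -1.17 to -0.71) and from 1.89 to 0.934 FPKM in U87 (log2 ratio -0.94, interval -1.45 to -0.60). WNT5A had log2 ratios of -0.46 (interval -0.75 to -0.24) in U251 and -0.43 (interval -0.59 to -0.29) in U87. For both genes the interval of the difference between the lines included 0, from -0.57 to 0.41 for WNT5B and from -0.25 to 0.35 for WNT5A.

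WNT7B, the main ligand of U87, went from 22.8 to 19.0 FPKM there (log2 ratio -0.26, interval -0.36 to -0.17), and in U251 from 48 to 23 reads (log2 ratio -0.68, interval -1.67 to -0.14). WNT3 had intervals that include 0 in both lines, at -0.25 (interval -0.57 to 0.04) and -0.14 (interval -0.40 to 0.12). Among ligands under the filter, WNT10B had 33 Control reads and 13 Bru reads in U87 (log2 ratio -1.05, interval -2.34 to -0.33). WNT10A had 0 Control reads and 10 Bru reads in U251, which is 3.77-fold higher if Control is set to the floor of 3 reads. The exact lower limit of its log2 ratio was 1.34. These are small counts, and the ligand sums of 12.0 and 7.96 FPKM in U251 and 36.1 and 28.9 FPKM in U87 rest on other genes. PORCN had the highest ratio of the 19 members in U251, from 3.04 to 3.91 FPKM (log2 ratio 0.35, interval 0.08 to 0.65), and had -0.09 (interval -0.32 to 0.15) in U87. AXIN1 and ZNRF3 had 0.07 (interval -0.07 to 0.21) and 0.09 (interval -0.09 to 0.29) in U251. AXIN2 had 47 and 18 reads in U251 (log2 ratio -0.89, interval -2.08 to -0.40) and 50 and 31 in U87 (log2 ratio -0.51, interval -1.33 to 0.04).

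The difference of the Bru to Control ratio between the lines was then tested for each of the 19 members with the exact interval of its 4 read counts. The number past 2-fold with an interval that leaves out 0 was 0 of 19, beside 4.86% of all genes. Without the 2-fold limit, the interval left out 0 for 9 members, where it did so for 49.8% of all genes, so the number among the members was close to that background. In 8 of these, DKK1, FZD1, FZD2, FZD3, FZD5, FZD6, FZD8 and LRP6, the ratio in U87 was above that in U251, by 0.85 (interval 0.46 to 1.24) for DKK1 and 0.78 (interval 0.55 to 1.06) for FZD8. PORCN went the other way, by -0.44 (interval -0.82 to -0.07). For SFRP1 and LRP5, the differences of 2.74 and 0.79 had intervals of -0.99 to 6.58 and -6.45 to 2.51, since U87 held 1 to 4 reads. For FZD7 the difference was -0.09. These comparisons share libraries with those between the lines, so the values of U251 Bru enter both.

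Other genes of the pathway were read from 5 lists of extracellular regulators, cytoplasmic transducers, nuclear effectors, canonical target genes and planar polarity genes, part of which overlap. Among 9 extracellular regulators above the filter, 2 were past 2-fold lower in U251 Bru, beside 5.44% of all genes. Their median was -0.73 in U251 and -0.19 in U87. The 2 lower ones were GPC4, a glypican at the cell surface, with 26.5 and 8.35 FPKM in U251 (log2 ratio -1.66), and TPBG, an inhibitor of canonical signalling, with 17.4 and 8.49 FPKM (log2 ratio -1.03). TPBG had -0.45 in U87. GPC4 held 1 and 0 reads there, so the U87 median partly rests on a gene that allows no comparison. KREMEN2, which works with DKK1 on LRP6, had -0.80 in U251 and -0.21 in U87. Of 20 cytoplasmic transducers 0 were past 2-fold in either line, with medians of 0.05 and -0.03. In that list DACT1, CSNK1G2 and CSNK1E had log2 ratios of -0.70, -0.80 and -0.47 in U251 and -0.44, -0.24 and -0.13 in U87.

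Of 12 nuclear effectors, 1 was past 2-fold lower in U251 Bru, CTNNBIP1, an inhibitor of β-catenin, with 6.30 and 2.10 FPKM (log2 ratio -1.54). CTNNBIP1 had -0.39 in U87. In U87 Bru 1 was past 2-fold lower, TCF7L1, with 0.539 and 0.208 FPKM from 43 and 16 reads (log2 ratio -1.05). TCF7L1 was also lower in U251, at -0.72 (interval -1.13 to -0.41), and the interval of the difference between the lines, -1.60 to 0.34, included 0. TLE4, a corepressor, had -0.72 in U251 and 0.12 in U87. Of 7 canonical target genes above the filter, 1 was past 2-fold lower in U251 Bru, the cyclin CCND1, with 133 and 44.0 FPKM (log2 ratio -1.59) against 153 and 141 FPKM in U87 (log2 ratio -0.11). BAMBI was higher in both Bru libraries, at 0.82 and 0.67, and TCF7 had -0.16 and -0.53. Among 20 planar polarity and noncanonical genes, 2 were past 2-fold lower in U251 Bru, the cadherin CELSR2, with 9.60 and 3.71 FPKM (log2 ratio -1.35), and the receptor PTK7, with 23.6 and 10.3 FPKM (log2 ratio -1.19). CELSR2 was also lower in U87, at -0.77 (interval -1.25 to -0.54), where PTK7 held 1 and 9 reads. PRICKLE3 had 0.67 in U251 and -0.46 in U87. The medians of the last 3 lists were -0.10, -0.16 and -0.30 in U251 and -0.08, -0.07 and -0.03 in U87. Their counts stand beside the same shares of all genes, 5.44% lower in U251 and 1.41% lower in U87. PTK7 and GPC4 resembled LRP5 in the lines, at 0.00613 and 0.0112 FPKM in U87 Control, a likeness seen after their values were known.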

How the data were processed

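RNA of U251 and U87 cells, Control and Bru, was sequenced with 1 library per condition. The NEB Next Ultra kit was used and paired ends were read. The submitters' processing notes name HISAT2 2.0.5, StringTie 1.3.3b, featureCounts 1.5.0-p3, DESeq2 1.16.1 and the build hg18, with no roles. The coordinates in the files are those of GENCODE release 29 (GRCh38) for 58724 of 58735 genes and for 46 of 46 members, and these are used here. The authors deposited FPKM per gene, with gene lengths.

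FPKM times gene length was a whole multiple of 1 step per library for 100% of the values above 0 (tolerance 0.001 reads), with a largest deviation of 5.14e-05 reads, which gave the reads per gene. Log2 ratios used FPKM + 0.1 and the genes whose FPKM averaged 1 or more over the libraries, with a cutoff of 2-fold. Intervals are exact 95% Clopper-Pearson intervals of a gene's reads in 1 of the compared libraries, scaled by the library sizes inside the FPKM, and the difference between lines uses the conditional exact interval of 4 counts. They cover counting error only. No p-value was computed, and no gene set was tested.

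The members and lists were chosen with earlier results of these data known. Members above the filter are named, those under it with reads where a library held at least 20, and of each list of other pathway genes the 3 with the largest mean absolute log2 ratio over the lines. SFRP2 and WNT10A, below 20 reads in every library, are given with reads outside this rule. Alternatives were other pseudocounts, scalings, filters and floors. Promoter windows are from RefSeq (GRCh38.p14). A planned description of protein motifs was not made. The scripts (Python 3.11.15, pandas 2.3.3, NumPy 2.4.6, SciPy 1.17.1, matplotlib 3.10.9) were tested on simulated data.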

Additional observations from a re-analysis of the deposited data

Results flagged for a closer look

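The Bru to Control log2 ratio differed between U87 and U251 by the exact interval of the 4 read counts for 9 of 19 members, none of them by more than 2-fold. The same held for 49.8% of all 12949 genes, so the number is close to that background. The difference, U87 minus U251, was 0.85 for DKK1, 0.78 for FZD8, 0.66 for FZD5 and 0.61 for FZD2. It was 0.47 for LRP6, 0.44 for FZD1, 0.40 for FZD3 and 0.29 for FZD6, which are 3 Frizzled receptors and a coreceptor. For these 8 genes the ratio of Bru to Control was lower in U251 than in U87, where that of FZD3 was above 0, at 0.05. For PORCN the difference was -0.44, with the ratio above 0 in U251 and below 0 in U87. The intervals cover counting error in 4 libraries, and differences between cultures were not tested.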

How the results depend on the processing

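No paired analysis was possible because each condition has 1 library and the labels give no replicate numbers. Of 380 log2 ratios of single members recomputed under the alternatives, 358 moved by less than their counting interval and 22 by more. The sign changed in 4, all of AXIN1 or DKK1 in U87 Bru, whose main values are within 0.03 of 0, and in none of a member past 2-fold. The count of members past 2-fold in U251 Bru was 2 instead of 4 with a minimum mean FPKM of 5, where 10 members are tested. It was 3 with a pseudocount of 1, where FZD5 fell to -0.84, and 5 with 0.01, where FZD8 reached -1.02. Without a minimum it was 6, with 1 higher and 5 lower. The median was -0.50 without a minimum and -0.59 with a minimum of 0.1. In U87 Bru the count of 0 became 3 with a pseudocount of 0.01 (DKK3, WNT5B and LRP5, the last on 5 reads), 1 on TPM (DKK3), and 1 both without a minimum and with a minimum of 0.1 (WNT10B). Between the Control libraries of the lines the count of 12 became 19 without a minimum and 7 with a minimum of 5, and the median became -0.53 without a minimum and -0.81 with a minimum of 0.1. Between the Bru libraries the count of 10 became 16 without a minimum and 5 with a minimum of 5. An FPKM of at least 1 in place of 3 reads left 19, 18, 16 and 15 members in U251 Control, U251 Bru, U87 Control and U87 Bru. TPM shifted the median of all genes to -0.12 between the Bru libraries of the lines, and in the other comparisons and under the other scalings it stayed between -0.08 and 0.05. Counts of 1 to 4 reads, as for LRP5 and SFRP1 in U87, limit what can be said of Bru there.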
